A study of Mus musculus with 18 samples.

Results

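Chemokine genes that keratinocytes are known to express were followed in epidermal cells with and without Zfp36. The set was named by gene symbol and held 10 chemokines: Cxcl1, Cxcl2, Cxcl3, Cxcl5, Cxcl14, Cxcl16, Ccl20, Ccl2, Ccl27a and Cx3cl1. These symbols matched 12 of the 52636 gene IDs in the count table, because Ccl27a had 3 IDs. Of these, ENSMUSG00000073888 held 4010 reads over all libraries, a further ID held 14 and the last held 0, so Ccl27a below means the first. Members were matched by symbol, with no threshold on their values.

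Control mice carried floxed Zfp36 alleles (Zfp36 fl/fl). Their littermates carried the same alleles with a Cre recombinase driven by the human keratin 14 promoter, active in basal keratinocytes (Zfp36 ΔK14). Mock groups came from mock-treated mice. The treated groups were nontumoral skin next to tumors painted with the mutagen DMBA and then with TPA, a tumor-promoting phorbol ester, and the tumor groups were papillomas of such mice. RNA-seq was run on cells sorted as EpCAM+ CD45- CD140a- CD31-, a gate meant to leave out leukocytes, fibroblasts and endothelium, although whole skin is the source named in the labels. All mice were on the C57BL/6 background. Mice were 8 weeks old when DMBA was first applied. Their ages at collection and the number of mice behind each library are not given in the sources used here, so p-values measure the spread between libraries, which may be technical.

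Each of the 6 groups had 3 columns, but mock ΔK14 replicates 2 and 3 held the same value for each gene, so they count as 1 library. That left 17 libraries of 2808550 to 9617985 reads in genes (median 5567614), with n = 2 for mock ΔK14 and n = 3 elsewhere. Levels are in CPM, reads scaled to a common library size. Zfp36 itself ranged from 152 to 716 CPM in the fl/fl libraries and from 10.1 to 38.6 CPM in the ΔK14 libraries, so every library went with its genotype label. The 10 keratinocyte markers were above 0 in every library, with summed levels of 6190 to 36975 CPM. The 8 leukocyte markers summed to between 2.44 and 12.1 CPM. The 6 fibroblast markers summed to 377 to 1678 CPM in the skin libraries, against 30.4 to 386 CPM in the tumors. Fibroblast RNA was thus not fully left out by the gate, and its part in the chemokine levels was not tested.

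Chemokines are small secreted proteins that bind receptors on leukocytes and direct their migration. Keratinocytes express some of them at rest and others after injury or cytokines, so the epidermis both keeps resident immune cells in place and calls in new ones. Many inflammatory chemokine mRNAs are short-lived because they carry AU-rich elements (AREs) in the 3′ untranslated region. Tristetraprolin, the protein made from Zfp36, binds such elements and speeds decay of the mRNA. Transcription of many of the same genes is driven by NF-kB.

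AREs were counted as the heptamer TATTTAT, taking for each gene the longest 3′ untranslated region annotated in GENCODE (GRCm38). This heptamer was present in 6 of the 10 chemokines, against 27.6% of 21024 genes. Cxcl2 had 7 copies, Cxcl1 had 6, Cxcl3 had 2, and Cxcl5, Ccl20 and Cx3cl1 had 1 each. Cxcl14, Cxcl16, Ccl2 and Ccl27a had 0. The stricter nonamer TTATTTATT was found in 4 of 10, namely Cxcl1, Cxcl2, Cxcl3 and Cx3cl1, against 7.66% of genes. The shorter pentamer ATTTA, which lies inside the heptamer and the nonamer, was found in 8 of 10 against 65.2%. The annotated region of Ccl27a was only 31 bases long and that of Ccl2 275 bases, so little sequence was searched there. The windows below show how dense the elements were in Cxcl1 and Cxcl2 compared with the lone copies elsewhere. Each is read 5′ to 3′ on the strand of the gene, as DNA, with the heptamers in capitals.
Cxcl1, chr5:90892606-90892635, plus strand: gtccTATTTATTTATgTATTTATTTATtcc
Cxcl2, chr5:90905325-90905354, plus strand: ctTATTTATTTATctatgTATTTATTTATt
Cxcl3, chr5:90787866-90787895, plus strand: attatcagttgtTATTTATtgaaatggtct
Cxcl5, chr5:90761227-90761256, plus strand: caaactgtatacTATTTATtaattattaac
Ccl20, chr1:83118907-83118936, plus strand: tgtattttatgtTATTTATagatctgaatt
Cx3cl1, chr8:94780849-94780878, plus strand: ccagtgaacaatTATTTATtggattcccag
In Cxcl1 and in Cxcl2 the window of 30 bases held 4 overlapping heptamers. A motif match is a description of the letters and does not show that tristetraprolin binds there.

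**Figure D1:**
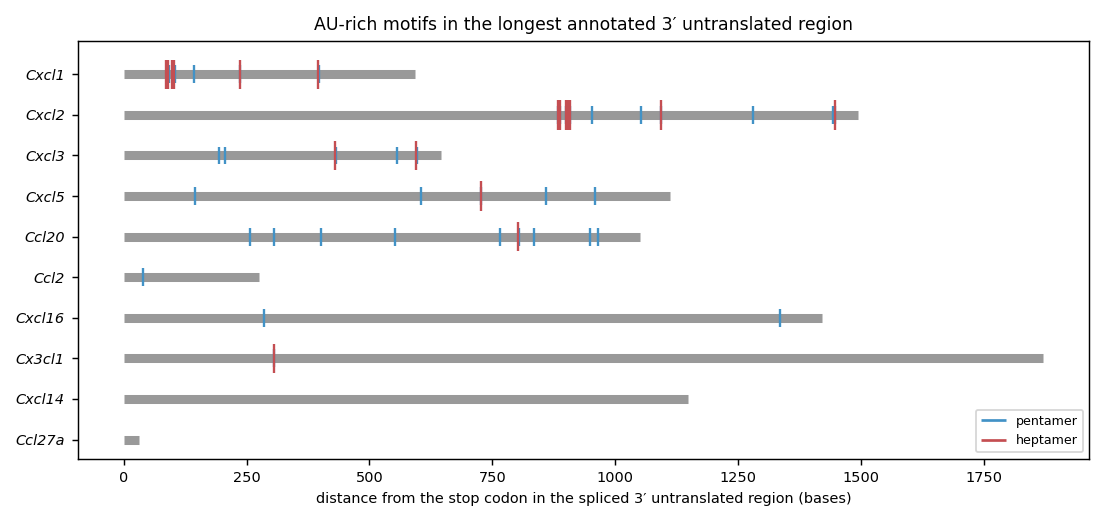
Positions of AU-rich motifs along the 3′ untranslated region (longest one annotated) of the 10 chemokine genes, in bases from the stop codon. Grey bars give the length of the region, short blue lines pentamers and long red lines heptamers. The heptamers of Cxcl1 (6) and Cxcl2 (7) are clustered, while Cxcl14 and Ccl27a carry neither motif.

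Cxcl1, Cxcl2, Cxcl3 and Cxcl5 lie together on chromosome 5, within 146579 bases that hold 7 protein-coding genes. Cxcl5 (ENSMUSG00000029371) spans chr5:90759360-90761624, Cxcl3 (ENSMUSG00000029379) chr5:90786103-90789600, Cxcl1 (ENSMUSG00000029380) chr5:90891241-90893115 and Cxcl2 (ENSMUSG00000058427) chr5:90903871-90905938, all on the plus strand of GRCm38. The other members are scattered, with Ccl20 (ENSMUSG00000026166) at chr1:83116766-83119167, Ccl2 (ENSMUSG00000035385) at chr11:82035571-82037453 and Cx3cl1 (ENSMUSG00000031778) at chr8:94772009-94782427 on the plus strand. Cxcl14 (ENSMUSG00000021508) at chr13:56288643-56296551, Cxcl16 (ENSMUSG00000018920) at chr11:70453983-70459984 and Ccl27a at chr4:41769467-41774247 lie on the minus strand. The neighbors of the 4 genes in that stretch on chromosome 5, Ppbp, Pf4 and Cxcl15, held 25, 3 and 3 reads over all libraries. Promoter sequence from RefSeq (GRCm38.p6, 250 bases before to 50 after the start) was matched for 7 of the 10 genes, and had no entry for Cxcl5, Cxcl16 and Ccl2. The NF-kB motif, searched on both strands, was found in the promoters of Cxcl1, Cxcl2, Cxcl3 and Ccl20 and in 1 of the 3 promoters of Ccl27a, against 4.51% of 32851 promoters of the same length. In Cxcl1, Cxcl2 and Cxcl3 the site was the same 10 letters, which match on both strands in overlapping positions. The sites are shown in capitals on the strand of the gene because the 3 neighboring genes share them letter for letter.
Cxcl1, chr5:90891166-90891191, plus strand: tgtactccGGGAATTTCCctggcccg
Cxcl2, chr5:90903794-90903819, plus strand: tgagctcaGGGAATTTCCctggtccc
Cxcl3, chr5:90786020-90786045, plus strand: gctgcgggGGGAATTTCCccagcccg
Ccl20, chr1:83116678-83116703, plus strand, motif read on the opposite strand: tcaatgggGGAAAACCCCgggtgaga
The motif began 71 bases before the start in Cxcl1, 97 in Cxcl2, 73 in Cxcl3 and 80 in Ccl20. No match was found in the promoters of Cxcl14 and Cx3cl1.

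In mock skin the homeostatic chemokines led by group mean. Per kb of the longest coding transcript, Cxcl14 stood highest at 135 ± 63.4 CPM per kb in fl/fl mock cells (SD, n = 3), followed by Ccl27a at 99.1 ± 73.6. Cxcl14 is a chemokine of normal epithelia, and Ccl27a is the skin chemokine that draws CCR10+ T cells. Cxcl16 (26.1 ± 19.0) and Cxcl1 (21.4 ± 16.7) came next, and the ranges of neighbors in this order of the leading 4 overlapped. In mock replicate 1 Cxcl1 stood above Ccl27a, at 40.5 against 14.1 CPM per kb in fl/fl and 65.0 against 27.4 in ΔK14 cells. Cxcl3 and Cxcl5 were last, at 0.133 ± 0.0531 and 0.0416 ± 0.0720 CPM per kb. In the tumors the order changed in part. Cxcl14 still ranked 4 by mean in fl/fl tumors, at 33.7 ± 18.8 CPM per kb, and overlapped Ccl2 above it. It ranked 6 in ΔK14 tumors, at 29.6 ± 12.5 CPM per kb. In fl/fl tumors Cxcl1 led at 275 ± 22.3 CPM per kb, apart from Cxcl2 at 78.4 ± 73.0. That gap depends on the transcript length taken for Cxcl2. Its longest 3′ untranslated region has 1494 bases, against 734 in the transcript with the longest coding sequence. In CPM, without regard to length, fl/fl tumor replicate 3 had more Cxcl2 than Cxcl1 (301 against 270). Ccl27a had the lowest mean, 4.23 ± 1.44, but overlapped Cxcl5 (4.40 ± 5.38) and Cxcl3 (5.11 ± 6.28). In ΔK14 tumors Cxcl1 reached 1010 ± 455 CPM per kb, with every library above those of Ccl2 (182 ± 75.2) and Cxcl2 (164 ± 74.3), which overlapped, and Ccl27a was last at 2.66 ± 1.19, apart from the gene above it.

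**Figure D2:**
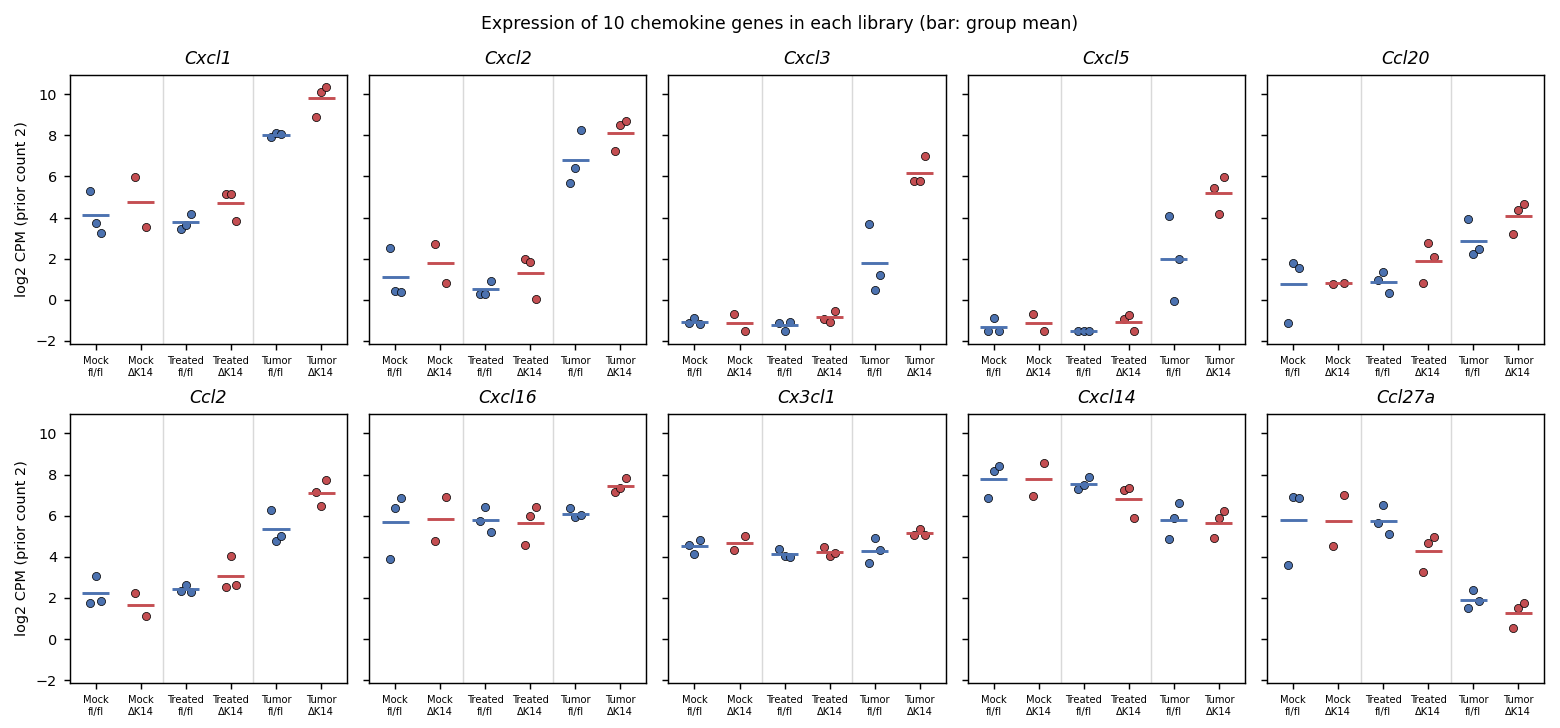
Level of each chemokine in every library as log2 CPM, computed with a prior count of 2 so that libraries at 0 can be drawn (blue, fl/fl; red, ΔK14; bars, group means). The lowest drawn value stands for a count of 0. Cxcl1, Cxcl2, Cxcl3, Cxcl5 and Ccl2 lie above all skin libraries in all 6 tumor libraries, and Ccl27a below all of them.

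Cxcl1, Cxcl2, Cxcl3 and Cxcl5 are ligands of CXCR2, the receptor by which neutrophils are drawn into tissue. All 4 stood higher in each tumor library than in any skin library. Cxcl1 measured 38.6, 13.2 and 9.28 CPM in fl/fl mock skin and 62.0 and 11.2 CPM in ΔK14 mock skin. In treated skin it measured 10.6, 12.3 and 17.7 CPM in fl/fl and 34.5, 35.1 and 13.9 CPM in ΔK14 cells. The 4 skin groups overlapped, and mock replicate 1 was the highest library of both mock groups. In fl/fl tumors Cxcl1 measured 238, 278 and 270 CPM, and in ΔK14 tumors 476, 1103 and 1309 CPM. These 2 tumor groups did not overlap with each other or with skin.

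Cxcl1 rose in tumors over treated skin by 4.24 ± 0.25 on the log2 scale (SE) in fl/fl cells (adjusted p = 0.000446, edgeR quasi-likelihood F test with Benjamini-Hochberg adjustment, as for every adjusted p here) and by 4.99 ± 0.51 in ΔK14 cells (adjusted p = 0.000444). Cxcl2, its close relative, measured 51.2, 84.8 and 301 CPM in fl/fl tumors and 148, 357 and 408 CPM in ΔK14 tumors, while no skin library exceeded 6.23 CPM. The tumor groups of Cxcl2 overlapped, since fl/fl replicate 3 reached the range of the ΔK14 libraries. The rise of Cxcl2 in tumors over treated skin was 6.99 ± 0.84 in fl/fl (adjusted p = 0.00243) and 6.78 ± 0.59 in ΔK14 cells (adjusted p = 0.000255). In both genotypes Cxcl2 passed the low-count filter through the tumor group alone. Its entry into these tests thus depended on its high level in tumors.

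Cxcl3 and Cxcl5 were close to absent outside tumors. Cxcl3 had at most 0.338 CPM in any skin library, and Cxcl5 at most 0.271 CPM. Cxcl3 measured 12.5, 1.07 and 1.97 CPM in fl/fl tumors and 53.9, 54.6 and 126 CPM in ΔK14 tumors. Cxcl5 measured 16.6, 0.611 and 3.61 CPM in fl/fl tumors and 42.3, 17.8 and 62.3 CPM in ΔK14 tumors. For both genes fl/fl tumor replicate 1 was the highest control tumor, 8.26 times the mean of the other two for Cxcl3 and 7.85 times for Cxcl5, and still below every ΔK14 tumor.

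The skin groups held so few reads of these genes that folds are given with 95% exact counting intervals. These cover counting error only and treat reads as independent. Summed over libraries, Cxcl3 was 35.1-fold higher in fl/fl tumors than in fl/fl treated skin (9.07 to 300.3), from 38 reads against 2. In the ΔK14 groups it was 379-fold higher (148 to 1393), from 1207 reads against 4. Cxcl5 was at least 29.6-fold higher in fl/fl tumors than in fl/fl treated skin, where it had 0 reads, with 3 reads over the group taken as the floor. In the ΔK14 groups it was 257-fold higher (87.7 to 1252), from 615 reads against 3. In ΔK14 cells both genes were called higher in tumors than in treated skin (adjusted p = 0.000165 for Cxcl3 and 0.000335 for Cxcl5). With at most 2 reads in any skin library they passed the low-count filter through the tumor libraries alone and could enter that test only as higher in tumors. They did not pass the low-count filter in the same fl/fl comparison.

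The makeup of this group of ligands shifted as well as its level. Their summed level was 10.3 to 68.8 CPM in the 11 skin libraries, 318 to 577 CPM in fl/fl tumors and 720 to 1906 CPM in ΔK14 tumors. Cxcl1 exceeded Cxcl2 by 7.10 to 20.5 times in the skin libraries. Cxcl2 held only 4 to 49 reads in a skin library, so that range carries a large counting error. The ratio was 3.09, 3.23 and 3.21 in the ΔK14 tumors and 4.65, 3.28 and 0.897 in the fl/fl tumors, so no tumor library reached the skin range. Cxcl3 made up 3.57% to 7.49% of the summed level in ΔK14 tumors and 3.94%, 0.293% and 0.341% in the fl/fl tumors. This pattern was chosen after its values were seen and was not tested.

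**Figure D3:**
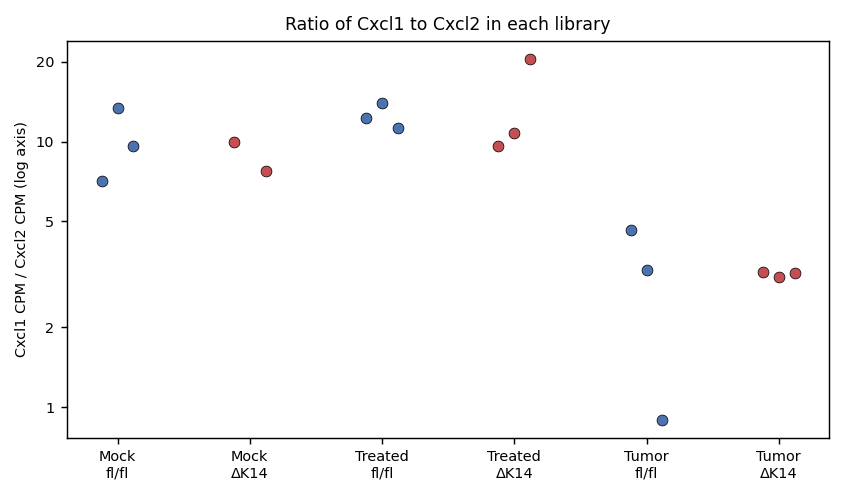
Ratio of Cxcl1 to Cxcl2 level in each library by group, on a log axis (blue, fl/fl; red, ΔK14). The 11 skin libraries lie between 7.10 and 20.5 and the 6 tumor libraries between 0.897 and 4.65. Cxcl2 held only 4 to 49 reads in a skin library.

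Ccl20, the ligand of CCR6 on Th17 cells, γδ T cells and dendritic cells, was weakly expressed throughout. It ranged from 0.111 to 6.40 CPM in skin. It measured 15.1, 4.28 and 5.24 CPM in fl/fl tumors and 8.95, 20.1 and 25.1 CPM in ΔK14 tumors, and these groups overlapped. Its rise over treated skin was 2.29 ± 0.60 in fl/fl (adjusted p = 0.0289) and 2.06 ± 0.53 in ΔK14 cells (adjusted p = 0.0162). Ccl20 passed the low-count filter through the tumor group alone in fl/fl, and through both groups in ΔK14 cells. The fl/fl test thus depended on its high level in tumors. The fl/fl call was lost under 6 of 13 alternative settings (adjusted p = 0.000884 to 0.107 over the 13), namely without treated replicate 1, 2 or 3, without tumor replicate 3, with 1 fit of all groups and with the replicate block. The ΔK14 call was lost without tumor replicate 3 (adjusted p = 0.0665).

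Ccl2, the ligand of CCR2 that draws monocytes, measured 1.80 to 16.1 CPM in skin. It measured 78.3, 27.3 and 31.8 CPM in fl/fl tumors and 143, 88.9 and 211 CPM in ΔK14 tumors, and the 2 tumor groups did not overlap. Its rise over treated skin was 3.13 ± 0.43 in fl/fl (adjusted p = 0.00356) and 3.88 ± 0.50 in ΔK14 cells (adjusted p = 0.00115). Fibroblasts are another known source of Ccl2. The 6 fibroblast markers, none of which was at 0 in a tumor library, summed to 137, 197 and 82.9 CPM in fl/fl tumors and to 299, 386 and 30.4 CPM in ΔK14 tumors. The part of fibroblasts in the level of Ccl2 was not tested. The gene lies within the span of Gm17268 on the opposite strand, which shares no exon with it and held 2 reads.

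Cxcl16 and Cx3cl1 are the 2 chemokines made as membrane-bound proteins and cleaved by ADAM10 and ADAM17. Cxcl16, the ligand of CXCR6, measured 14.8, 81.3 and 116 CPM in fl/fl mock skin and 27.3 and 120 CPM in ΔK14 mock skin. Mock replicate 1 was the lowest library of both mock groups, and treated skin ranged from 23.1 to 86.7 CPM. In fl/fl tumors Cxcl16 measured 81.3, 60.8 and 64.9 CPM, inside the range of fl/fl skin. In ΔK14 tumors it measured 140, 161 and 229 CPM, above every other library. Tumors exceeded treated skin by 1.52 ± 0.41 in ΔK14 cells (adjusted p = 0.0204), and the fl/fl difference was 0.22 ± 0.30 (adjusted p = 0.612). The ΔK14 call was lost without treated replicate 2 (adjusted p = 0.0557), without tumor replicate 3 (0.0782) and with 1 fit of all groups (0.0814). The difference between these differences was 1.32 ± 0.56 and did not pass (adjusted p = 0.348).

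Cxcl16 overlaps Zmynd15 on the opposite strand by 552 exonic bases. The use of strand in the counting is not given in the sources used here, so reads in that stretch cannot be told apart. Zmynd15 was also the gene whose log2 CPM followed Cxcl16 most closely over the 17 libraries (Pearson r = 0.967). It held 2256 reads against 7936 for Cxcl16, and in tumors it measured 19.8 ± 2.14 CPM in fl/fl and 48.3 ± 10.7 CPM in ΔK14 cells (SD, n = 3).

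Cx3cl1, or fractalkine, was the steadiest of the 10. It measured 15.8 to 32.4 CPM in skin, 12.5, 29.5 and 19.7 CPM in fl/fl tumors and 32.7, 39.9 and 33.1 CPM in ΔK14 tumors. The ΔK14 tumors were the highest group and stood just above every other library. Tumors exceeded treated skin in ΔK14 cells with an adjusted p of 0.0115, but the difference of 0.84 ± 0.20 was under the 2-fold limit, and it was not called. Of the sheddases, Adam10 was called higher in ΔK14 tumors than in ΔK14 mock skin (1.12 ± 0.26, adjusted p = 0.0378), and Adam17 was not called in any comparison.

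Cxcl14 and Ccl27a moved the other way. Cxcl14 measured 116, 285 and 338 CPM in fl/fl mock, 124 and 383 in ΔK14 mock, 158, 179 and 232 in fl/fl treated and 149, 164 and 59.3 in ΔK14 treated skin. It measured 29.1, 58.0 and 97.7 CPM in fl/fl tumors and 29.5, 58.4 and 74.5 CPM in ΔK14 tumors, ranges that all but coincided. Its drop from treated skin to tumors was called in fl/fl (-1.63 ± 0.41, adjusted p = 0.0253) and in ΔK14 cells (-1.31 ± 0.43, adjusted p = 0.0418), although treated replicate 3 overlapped the tumors in ΔK14. The fl/fl call was lost without treated replicate 1, 2 or 3 and without tumor replicate 2 (adjusted p = 0.0647 to 0.0858). The ΔK14 call was lost under 7 of 13 settings, 5 of which left out treated replicate 1 or 2 or one of the 3 tumor replicates (adjusted p = 0.0598 to 0.146 over the 7).

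Ccl27a measured 11.9, 121 and 117 CPM in fl/fl mock and 23.0 and 126 CPM in ΔK14 mock skin, with replicate 1 low in both groups. In mock replicate 1 of fl/fl and ΔK14 the keratinocyte markers summed to 6190 and 6548 CPM, against 26596 to 30820 CPM in the other mock libraries. Melanocyte markers summed to 320 and 279 CPM, against 41.8 to 94.7 CPM. The part of this makeup in the chemokine levels was not tested. In treated skin Ccl27a measured 49.4, 92.5 and 34.0 CPM in fl/fl and 9.33, 24.9 and 30.6 CPM in ΔK14 cells, which did not overlap. In tumors it measured 2.51, 4.89 and 3.28 CPM in fl/fl and 1.12, 2.54 and 3.04 CPM in ΔK14 cells. The drop from treated skin to tumors was -3.96 ± 0.44 in fl/fl (adjusted p = 0.00191) and -3.34 ± 0.51 in ΔK14 cells (adjusted p = 0.00208), and both calls were kept under all 13 alternative settings. In both genotypes, however, Ccl27a passed the low-count filter through treated skin alone, the group where it was high. On the opposite strand Ccl27a overlaps Il11ra1 by 8 exonic bases. Il11ra1 held 2476 reads and was also called lower in tumors than in treated skin in both genotypes. The part of this short overlap in the level of Ccl27a was not tested. Ccl27b, a near copy whose reads may be split with those of Ccl27a, was among the 3 genes most like it over the libraries (r = 0.970), behind Txnip (r = 0.972) and Ezh1 (r = 0.971).

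These counts depend on which members passed the filter, and those carried past it by 1 group could be called in 1 direction only. Counted over the set, tumors against fl/fl treated skin gave 4 chemokines higher and 2 lower of 8 tested, against 18% of all 15362 genes called (7.5% higher, 10.5% lower). In ΔK14 cells 7 were higher and 2 lower of 10 tested, against 26% of 15289 genes (10.5% higher, 15.5% lower). Against mock skin the counts were 3 higher and 1 lower of 8 in fl/fl cells (4.11% of 15394 genes, 2.22% higher and 1.88% lower) and 6 higher and 2 lower of 10 in ΔK14 cells (14.3% of 15027 genes, 7.05% higher and 7.22% lower). Among members not carried by 1 group, 2 were higher and 1 lower of 5 against fl/fl treated skin. Against ΔK14 treated skin 4 were higher and 1 lower of 6. Against mock skin 2 were higher and 1 lower of 6 in fl/fl cells, and 1 higher and 2 lower of 5 in ΔK14 cells. The shares of genes above include genes carried by 1 group, so these smaller counts have no like share beside them. The members called against fl/fl mock skin were Cxcl1 (3.64 ± 0.56), Cxcl2 (5.82 ± 1.02), Ccl2 (3.25 ± 0.58) and Ccl27a (-4.50 ± 0.87). Against ΔK14 mock skin they were Cxcl1 (4.60 ± 0.87), Cxcl2 (6.14 ± 0.77), Cxcl3, Cxcl5, Ccl20 (3.57 ± 0.61), Ccl2 (5.44 ± 0.60), Cxcl14 (-2.32 ± 0.55) and Ccl27a (-5.11 ± 0.77).

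The fl/fl mock comparison was fragile. It lost every chemokine call when mock replicate 2, mock replicate 3, tumor replicate 2 or tumor replicate 3 was left out, and then 0.181%, 0.31%, 0.492% and 0.406% of all genes were called. The ΔK14 mock comparison fell to 5, 3 and 4 calls without tumor replicate 1, 2 and 3, against 2.75%, 0.709% and 1.51% of genes. The 2 comparisons of tumors in a genotype share their tumor libraries.

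**Figure D4:**
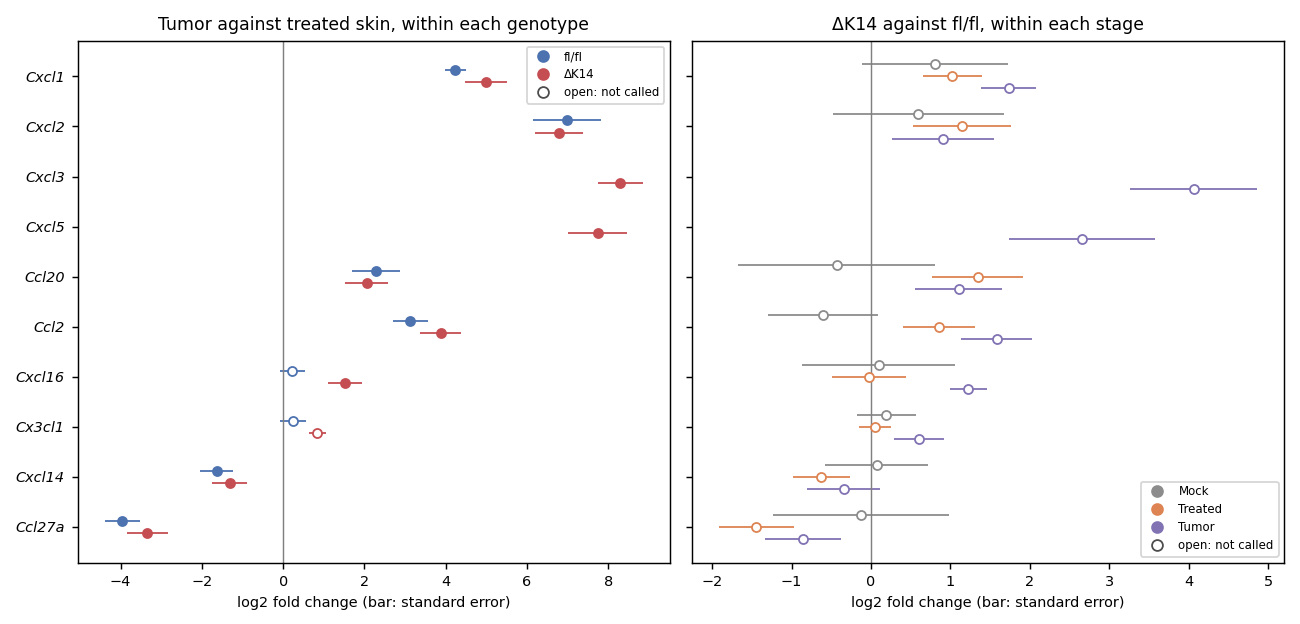
Fitted log2 fold change of each chemokine with its standard error. Left, tumor against treated skin in fl/fl (blue) and ΔK14 (red) cells; right, ΔK14 against fl/fl in mock (grey), treated (orange) and tumor (purple) cells. Filled points were called (adjusted p under 0.05, more than 2-fold), open points were not, and genes without a point did not pass the low-count filter. All points on the right are open.

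No chemokine was called between treated and mock skin. None of the 7 tested in fl/fl and none of the 8 tested in ΔK14 cells was called, and none had an unadjusted p under 0.05 (5.5% of 16601 genes and 4.8% of 15891 genes did). The quasi-likelihood test called 0% of genes in both comparisons. DESeq2 called 0 chemokines as well (0.711% of genes in fl/fl and 0.447% in ΔK14 cells), and so did the exact test (0.626% and 0.422%). Without mock replicate 1 of the fl/fl group 15.1% of genes were called, but still 0 chemokines.

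The loss of Zfp36 was compared within each stage. In mock skin 0 of 8 tested chemokines were called (0% of 15920 genes), and 0 had an unadjusted p under 0.05 (1.59% of genes did). DESeq2 (0.0188% of genes) and the exact test (0.0126%) called 0 chemokines there too. In treated skin 0 of 8 were called (0.00616% of 16232 genes). Unadjusted p was under 0.05 for 3 of them, against 5.55% of genes. On the log2 scale Cxcl1 differed by 1.02 ± 0.37, Ccl20 by 1.35 ± 0.57 and Ccl27a by -1.45 ± 0.47, ΔK14 minus fl/fl, each with an adjusted p of 0.897. Among the 8, Ccl27a alone had every ΔK14 library below every fl/fl library, against 5.93% of genes tested.

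In tumors 0 of 10 chemokines were called (0.0284% of 14067 genes). For 6 of the 10, namely Cxcl1, Cxcl3, Cxcl5, Cxcl16, Ccl2 and Cx3cl1, every ΔK14 tumor stood above every fl/fl tumor, against 13.6% of genes tested. Cxcl3 and Cxcl5 were carried past the filter by the ΔK14 tumors, where they were high, and Ccl27a by the fl/fl tumors. Among the 7 members not carried by 1 group, Cxcl1, Cxcl16, Ccl2 and Cx3cl1 stood apart in this way. The 13.6% includes genes carried by 1 group, so it is not a like share for these 7. The members were chosen with earlier results of these data known. Cxcl3 differed most, by 4.06 ± 0.80 (adjusted p = 0.175). Cxcl5 differed by 2.66 ± 0.92 (adjusted p = 0.270), Cxcl1 by 1.73 ± 0.35 (adjusted p = 0.175), Ccl2 by 1.58 ± 0.45 (adjusted p = 0.232) and Cxcl16 by 1.22 ± 0.23 (adjusted p = 0.175). These 5 had an unadjusted p under 0.05, as did 14% of all genes tested.

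The other 5 had larger errors relative to their differences. Ccl20 differed by 1.10 ± 0.54 (adjusted p = 0.405), Cxcl2 by 0.90 ± 0.64 (adjusted p = 0.555) and Cx3cl1 by 0.61 ± 0.31 (adjusted p = 0.424). Ccl27a differed by -0.86 ± 0.48 (adjusted p = 0.455) and Cxcl14 by -0.34 ± 0.46 (adjusted p = 0.776). Whether the tumor differences followed the number of heptamers was not tested. The error of Cxcl2, with 7 copies, was too large to place it against Cxcl16 (1.22 ± 0.23) and Ccl2 (1.58 ± 0.45), with 0. With single libraries left out, Cxcl2 ranged from 0.55 to 2.02, Cxcl16 from 1.05 to 1.38 and Ccl2 from 1.29 to 2.22.

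The number of calls in this comparison depended on the test, on the low-count filter and on fl/fl tumor replicate 1. That library had the lowest total count (2808550) and the fewest genes with a read (19219), and its keratinocyte markers summed to 36975 CPM, against 12321 and 13472 CPM in the other fl/fl tumors and 30840 to 32483 CPM in the ΔK14 tumors. It was the highest fl/fl tumor for Cxcl3, Cxcl5, Cxcl16, Ccl20 and Ccl2. Without it 6 of 10 chemokines were called higher in ΔK14 tumors, against 16.9% of all genes: Cxcl1 (1.70, adjusted p = 0.00782), Cxcl3 (5.69, 0.000159), Cxcl5 (4.47, 0.00220), Cxcl16 (1.38, 0.00256), Ccl20 (1.84, 0.0144) and Ccl2 (2.22, 0.00170). The part of the keratinocyte markers, which then differ between the groups in the same direction, was not tested. No other library, when left out, gave a chemokine call. With all libraries DESeq2 and the exact test each called the same 4, Cxcl1, Cxcl3, Cxcl16 and Ccl2, against 2.6% and 2.62% of genes.

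**Figure D5:**
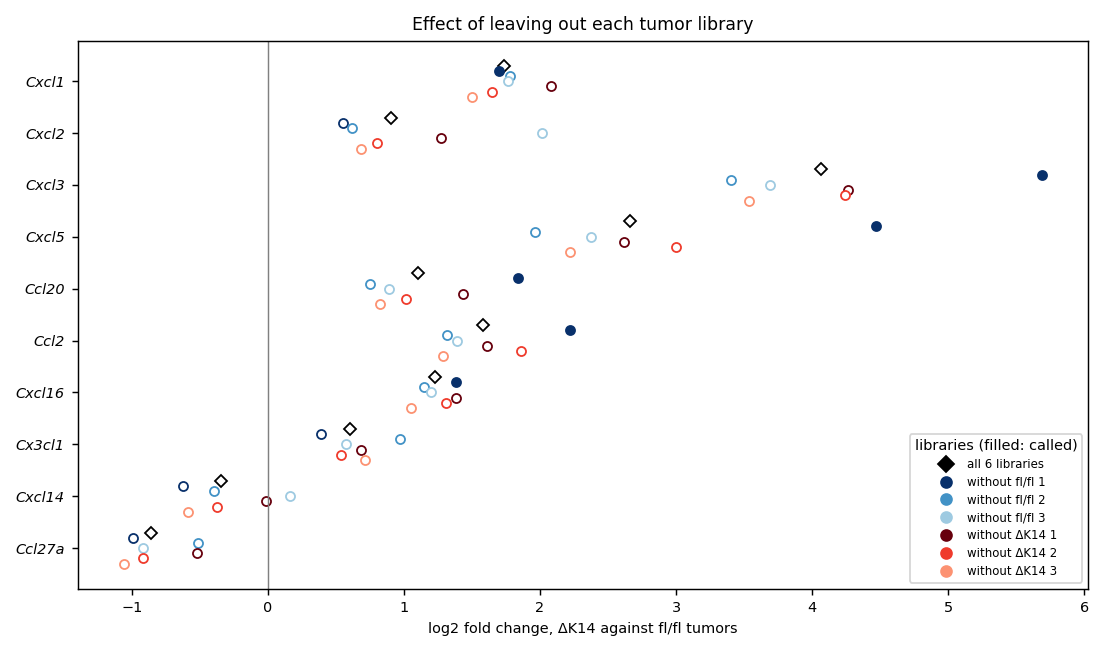
Log2 fold change of each chemokine between ΔK14 and fl/fl tumors with all 6 libraries (diamonds) and with each library left out in turn (circles). Filled symbols were called (adjusted p under 0.05, more than 2-fold). They appear only without fl/fl replicate 1, for Cxcl1, Cxcl3, Cxcl5, Ccl20, Ccl2 and Cxcl16.

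Whether the change from skin to tumor depended on genotype was tested as an interaction. No chemokine was called for tumor against mock skin (0% of 17388 genes) or tumor against treated skin (0.0118% of 17017 genes), and none of the 8 tested was called for treated against mock skin (0% of 17694 genes). At an unadjusted p under 0.05 stood Ccl2 in the first of these (2.18 ± 0.87, adjusted p = 0.582; 8.18% of genes), Cxcl16 in the second (13.2% of genes) and 0 chemokines in the last (1.45% of genes).

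Markers of other cell types moved with some of these results. The 6 neutrophil markers summed to at most 4.17 CPM in mock and fl/fl treated skin, to 57.8 to 476 CPM in ΔK14 treated skin, to 74.8 to 239 CPM in fl/fl tumors and to 1135 to 1720 CPM in ΔK14 tumors. Nearly all of this came from S100a8 and S100a9, which inflamed keratinocytes also express. With Cxcr2, these were the 3 of 6 markers tested in tumors against skin, and all 3 were called higher in each comparison except Cxcr2 in ΔK14 tumors against treated skin. Retnlg was at 0 in every library, Ly6g averaged 0.270 CPM and Csf3r 0.0633 CPM in ΔK14 tumors, and 2 or 3 of the 6 genes were at 0 in each tumor library. The 6 Langerhans and dendritic markers summed to 17.4 to 39.6 CPM in fl/fl tumors and 72.4 to 114 CPM in ΔK14 tumors, led by Cd74. They summed to 7.77 to 31.4 CPM in the skin libraries except ΔK14 treated replicate 3, which at 241 CPM was above every tumor, while Cd207, which defines Langerhans cells, was at 0 in all 6 tumor libraries. The 7 macrophage and monocyte markers summed to between 6.52 and 9.01 CPM in fl/fl and between 9.62 and 10.6 CPM in ΔK14 tumors. The part of these cells in the chemokine levels was not tested. In bulk samples, fewer cells of a type and less RNA per cell cannot be told apart.

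Of the receptors for these ligands Cxcr2 was the highest in tumors, at 48 reads in the fl/fl and 85 in the ΔK14 group. Cxcr2 measured 4.66 ± 1.46 CPM in fl/fl and 5.40 ± 2.55 CPM in ΔK14 tumors (SD, n = 3), and was called higher than in treated skin in fl/fl (4.44 ± 0.69, adjusted p = 0.00523) and higher than in mock skin in both genotypes. Between the genotypes in tumors it differed by 0.12 ± 0.48 (adjusted p = 0.931). Cx3cr1 had 14 reads in the fl/fl tumors and 36 in the ΔK14 tumors. Ccr2, Ccr6, Cxcr3, Cxcr6 and Ccr10 had at most 5 reads over the libraries of either tumor group. The receptor list held 23 genes, of which 5 to 7 were tested in each comparison of tumors with skin. Besides Cxcr2, the calls were Cxcr4 and Ccrl2 lower in fl/fl tumors than in treated skin, Ackr4 and Ccrl2 lower in ΔK14 tumors than in mock skin, and Ackr4 lower than in ΔK14 treated skin.

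Other chemokines were mostly near the limit of detection, and 4 to 7 of the 27 on the list were tested in each comparison of tumors with skin. Cxcl12, a stromal chemokine that binds CXCR4, was lower in tumors than in treated skin in fl/fl (-3.85 ± 0.48, adjusted p = 0.00264) and in ΔK14 cells (-3.64 ± 0.66, adjusted p = 0.00395). Ccl11 (4.37 ± 0.66, adjusted p = 0.00202) and Ccl8 (2.32 ± 0.65, adjusted p = 0.0227) were higher in ΔK14 tumors than in ΔK14 treated skin, and Cxcl9 and Ccl25 were lower. None of the 6 tested between the tumor genotypes was called. Of 6 fibroblast markers, 2 were called lower in tumors than in treated skin in fl/fl cells (median log2 difference -0.85) and 1, Dcn, in ΔK14 cells (median -0.01). Their part in the level of Cxcl12 was not tested.

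Cytokines that induce chemokines in keratinocytes, and their receptors, formed a list of 19 genes. Of these, 3 of 12 tested were higher and 0 lower in fl/fl tumors than in treated skin, and 4 of 14 higher and 1 lower in ΔK14 cells, beside 18% and 26% of all genes called. Il1a, the alarmin stored in keratinocytes, averaged 1.58 ± 0.68 CPM in fl/fl and 3.19 ± 1.66 CPM in ΔK14 treated skin, against 20.3 ± 14.4 CPM in fl/fl and 143 ± 107 CPM in ΔK14 tumors. Its rise was 3.57 ± 0.68 in fl/fl (adjusted p = 0.0103) and 5.36 ± 0.81 in ΔK14 cells (adjusted p = 0.00202). Il36g and Il1rap, the shared receptor chain of the IL-1 and IL-36 systems, were called higher in both genotypes, Tnf higher and Il1r1 lower only among the ΔK14 calls. Of 15 NF-kB genes, Bcl3 was called higher in both genotypes, Rela higher in ΔK14 cells and Nfkbie lower in fl/fl cells, which is 2 of 15 in each genotype beside the same 18% and 26%. No gene of either list was called between the tumor genotypes.

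Across the 17 libraries the members that followed each other most closely in log2 CPM were Cxcl3 with Cxcl5 (r = 0.981) and Cxcl1 with Cxcl2 (r = 0.981). The correlation of Cxcl1 with Ccl27a was -0.916 and with Cxcl16 0.371. Outside the set, the closest gene to Cxcl1 was Slc20a1 (r = 0.986), to Cxcl2 Bag3 (0.973), to Cxcl3 Vegfa (0.981), to Cxcl5 Glyat (0.984), to Ccl20 Krt16 (0.957) and to Ccl2 Far1 (0.976). For Cxcl14 it was Birc2 (0.937) and for Cx3cl1 Dirc2 (0.832), the lowest of these. The points share their groups and libraries, so these values describe the split between tumors and skin in the main.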

How the data were processed

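The authors deposited raw read counts per gene (Ovation SoLo kit), in 18 columns of 52636 Ensembl gene IDs, and the unit is counts with no normalization. The submitters' processing notes name Trimmomatic 0.36, STAR 2.5.3, HTSeq 0.9.1, DESeq2 and mm10, with no role or order, while the table is named for featureCounts. The annotation release, use of strand and handling of duplicate reads are not given in the sources used here. PCR duplicates are not independent molecules, so the counting intervals may be too narrow if duplicates were kept. Columns outside the design numbered 0.

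Counts were tested in R 4.3.3 with edgeR 4.0.16 and its quasi-likelihood F test (filterByExpr, TMM, two-sided, Benjamini-Hochberg over all genes tested), on the libraries of the groups compared. Calls needed a fold change over 2 and an adjusted p under 0.05. CPM used TMM sizes over the 18252 genes that passed the filter in 6 groups. Sequences came from GENCODE (GRCm38) and RefSeq. The members and the lists of markers, receptors, cytokines, other chemokines and NF-kB genes were chosen with earlier results of these data known. All 10 members were named, and from the lists the genes called and the receptors of the members, together with the 3 genes most like each member. The alternatives were DESeq2 1.42.0, the exact test, 1 fit of all groups, a mean count of at least 10 as the filter or none, RLE scaling, a replicate block, each library left out, the identical columns as 2 libraries and a term for mock replicate 1. The procedures were tested on simulated data.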

Additional observations from a re-analysis of the deposited data

How the results depend on the processing

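Counts of called chemokines moved as follows. Between tumor genotypes the count of 0 became 4 with DESeq2, 4 with the exact test, 1 with a fit of all groups and 7 without a low-count filter, and 0 to 6 with each library left out. Without the filter it became 2 between treated genotypes (Cxcl1 and Ccl27a), 1 for ΔK14 treated against mock skin (Ccl27a), 1 each for the interactions of tumor with mock (Ccl2) and with treated skin (Cxcl16), and 7 for fl/fl tumor against mock skin. That last count of 4 was also 7 in a fit of all groups, 1 with the replicate block, and 0 to 5 with each library left out. Leaving out each library gave 3 to 8 for ΔK14 tumor against mock skin, 6 to 9 for ΔK14 tumor against treated skin, and 4 to 6 for fl/fl tumor against treated skin. The cause was not tested.

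The other 153 recomputed counts equaled their main value or stayed within 1.5 times it. Most of these were counts of 0 that stayed at 0, in comparisons where few or no genes were called, so they say little about stability. Of the log2 differences 5 reversed, none of them called: Cxcl16 between treated genotypes (0.34 without fl/fl replicate 2 and 0.34 without ΔK14 replicate 1, with -0.40 to 0.34 over all libraries left out), Cx3cl1 there (-0.01 without fl/fl replicate 3 and -0.089 without ΔK14 replicate 1, with -0.089 to 0.18 over all), and Cxcl14 between tumor genotypes (0.16 without fl/fl replicate 3, with -0.62 to 0.16 over all). Same-numbered samples did not deviate together in every pair of any comparison with 3 pairs (between tumor genotypes 0.14, 0.25 and -0.07). Comparisons with mock ΔK14 had 2 pairs. Their r was 0.78 and 0.57 between mock genotypes, 0.57 and 0.14 for ΔK14 treated and 0.094 and 0.12 for ΔK14 tumor against mock skin. With the replicate block 0.691% of genes were called between mock genotypes, against 0% without it. The numbers were not taken as pairs in the main tests. The number of heptamer-bearing members was 6 with either transcript choice.

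The shallowest library held 2808550 reads, and Cxcl3 and Cxcl5 had at most 2 reads in any skin library, which limits what can be said of them there.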
